A study of Mus musculus with 6 samples.

Results

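The genes described here are those of antigen presentation by the major histocompatibility complex (MHC), measured in RNA of the mouse femur. They were chosen by name. A probe set belonged if its symbol began with H2-, the prefix of the mouse MHC, or was Cd74, Ciita, B2m, Tap1, Tap2, Tapbp, Psmb8, Psmb9, Psmb10, Nlrc5 or Cd1d1. That rule found 81 of the 45101 probe sets on the array. Of these, 66 named 1 gene, 13 named several H2 genes and 2 named an H2 gene beside another gene. At the level of genes, 34 of 18193 genes with a probe set of their own were members. The class I group held 51 probe sets, the class II group held 26, and 4 belonged to neither.

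MHC class I molecules carry peptides made inside the cell to its surface and are found on almost every nucleated cell. The heavy chains H2-K1 and H2-D1 pair with the light chain beta-2 microglobulin, encoded by B2m. Peptides are cut by the immunoproteasome, pumped into the endoplasmic reticulum by the TAP transporter and loaded with the help of tapasin, encoded by Tapbp. Class II molecules carry peptides of proteins taken up by the cell, and in bone marrow they are known chiefly from B lymphocytes, dendritic cells and macrophages. Their chains are held by the invariant chain CD74 until H2-DM exchanges its fragment for a peptide, a step that H2-O restrains. CIITA and NLRC5 are the transcriptional coactivators of class II and class I genes.

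Endosteal RNA and central marrow RNA were compared, with 3 arrays from each region and 6 arrays in all. The animals were 3 male C57BL/6 mice aged 8 weeks, and all had received saline by intraperitoneal injection. Endosteal RNA came from Trizol passed through the femoral shaft after its marrow had been flushed out. Central RNA came from the flushed cells, which were spun down before lysis. Arrays carry the letters A, B and C in each region. The values are signals per probe set as the authors deposited them, on a linear scale, and changes are endosteal minus central on the log2(signal + 16) scale. In such whole-tissue RNA, fewer cells of a type and less RNA per cell cannot be told apart.

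Promoters of the genes that the results turn on are shown first, because class I and class II genes are known for short shared elements close to the start site. The 250 bases before the start site are given 5′ to 3′ on the coding strand, from RefSeq annotation of GRCm38.p6. Capitals mark every match to a searched motif on either strand. H2-Aa and H2-Eb1 encode class II chains, H2-Oa and H2-Ob encode the H2-O chains, H2-D1 is a class I heavy chain and B2m its light chain. H2-Aa is at chr17:34287824-34288073 (minus strand), H2-Eb1 at chr17:34305617-34305866 (plus strand), H2-Oa at chr17:34092129-34092378 (plus strand), H2-Ob at chr17:34238655-34238904 (plus strand), H2-D1 at chr17:35262844-35263093 (plus strand) and B2m at chr2:122147437-122147686 (plus strand).
H2-Aa: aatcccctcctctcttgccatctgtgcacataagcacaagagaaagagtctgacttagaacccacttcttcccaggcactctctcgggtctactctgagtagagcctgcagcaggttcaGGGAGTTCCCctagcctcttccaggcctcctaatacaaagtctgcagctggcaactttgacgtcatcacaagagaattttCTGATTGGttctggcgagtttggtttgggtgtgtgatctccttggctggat
H2-Eb1: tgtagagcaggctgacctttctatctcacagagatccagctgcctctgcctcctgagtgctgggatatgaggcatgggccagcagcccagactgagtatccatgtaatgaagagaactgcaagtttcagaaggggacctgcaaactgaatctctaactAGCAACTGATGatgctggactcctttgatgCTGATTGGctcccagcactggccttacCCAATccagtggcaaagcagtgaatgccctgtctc
H2-Oa: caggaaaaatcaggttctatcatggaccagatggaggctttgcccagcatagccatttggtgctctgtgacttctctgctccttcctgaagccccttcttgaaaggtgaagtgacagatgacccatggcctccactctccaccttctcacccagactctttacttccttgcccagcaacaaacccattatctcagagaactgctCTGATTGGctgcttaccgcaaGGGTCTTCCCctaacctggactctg
H2-Ob: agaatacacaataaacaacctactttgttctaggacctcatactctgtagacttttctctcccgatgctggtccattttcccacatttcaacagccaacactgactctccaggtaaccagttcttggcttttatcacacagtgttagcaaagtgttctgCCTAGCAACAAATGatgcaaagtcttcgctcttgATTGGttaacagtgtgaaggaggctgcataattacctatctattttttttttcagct
H2-D1: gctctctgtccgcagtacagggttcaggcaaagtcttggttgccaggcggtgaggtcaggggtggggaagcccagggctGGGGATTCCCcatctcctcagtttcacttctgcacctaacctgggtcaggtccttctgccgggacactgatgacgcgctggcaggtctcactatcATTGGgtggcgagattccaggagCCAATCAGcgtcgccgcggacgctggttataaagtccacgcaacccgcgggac
B2m: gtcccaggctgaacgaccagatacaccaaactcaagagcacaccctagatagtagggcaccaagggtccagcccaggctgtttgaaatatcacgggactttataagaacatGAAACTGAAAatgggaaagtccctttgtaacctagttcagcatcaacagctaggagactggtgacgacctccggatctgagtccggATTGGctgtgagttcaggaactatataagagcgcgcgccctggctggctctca
The motifs were the Y box CTGATTGG, its CCAAT core ATTGG, which lies inside every Y box, an X box, an interferon-stimulated response element (ISRE) and an NF-kappaB site. The X box was searched as C, any 2 bases, AG, any 2 bases, AC, any 3 bases and TG, the ISRE as GAAA, any 2 bases and GAAA, and the NF-kappaB site as GGG, any 2 bases and TTCCC. A shorter X box form, chosen after these windows had been read and overlapping the longer one, was AG, any base, AAC, any 2 bases and ATG. The search covered 300-base windows, with 250 bases before and 50 after the start. In H2-Aa the Y box began at position -51 from the start site, in H2-Eb1 at -62 and in H2-Oa at -46, while H2-Ob held the CCAAT core at -57. The shorter X box began at -92 in H2-Eb1 and at -88 in H2-Ob. In H2-Ob it lay inside a match to the longer X box that began at -91. H2-D1 held an NF-kappaB match at -171 and, on the other strand, a Y box at -53. NF-kappaB matches also began at -131 in H2-Aa and at -25 in H2-Oa. B2m held an ISRE match at -139 and the CCAAT core at -53.

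Windows were given for 29 of 45 member genes. Among the 8 class II genes with a window, all 8 held the CCAAT core and 4 held the Y box. The shares over all 32851 windows of the annotation were 37.4% for the core and 4.1% for the Y box. The longer X box was in 2 of these 8 genes, against 4.21% of all windows. The shorter form was in 4 of 8, against 0.895%, but it was chosen after reading these windows, so that comparison is not evidence. Of 14 class I heavy chain genes, 8 held the Y box and 5 held the NF-kappaB motif, which was in 1.75% of all windows. The NF-kappaB motif was also in 2 of the 8 class II genes, H2-Aa and H2-Oa, and in 0 of 6 class I supply genes. The ISRE motif was in B2m, H2-T22 and H2-T23 among all 29 genes, against 3.44% of all windows. The class II genes shown with lower values in endosteal RNA (H2-Oa and H2-Ob) matched the Y box or its core. So did those with overlapping values (H2-Aa and H2-Eb1), and the core was in 12 of the 14 class I heavy chain genes.

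Over all 45037 probe sets that were no array control, 1444 were higher and 582 were lower in endosteal RNA (limma, Benjamini-Hochberg adjusted p under 0.05). The arrays had been scaled to 1 common trimmed mean, and the median change of all probe sets was 0.08. Endosteal arrays carried far more signal for skeletal muscle, with summed signals over 8 genes of 57833 to 113983 against 316 to 611 on central arrays. The same held for 5 bone matrix genes, at 61131 to 74981 against 1541 to 1978. A probe set is called higher or lower below when it passed that test. The letters recur in both regions of the same 3 mice, and with the letter as a block 0 of 45037 probe sets were called, so both member calls below end there.

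By this test, calls among the presentation genes were few, and too few to set members apart from all probe sets. Of the 81 member probe sets, 1 was called higher, where 3.21% of all probe sets were, and 1 was called lower, where 1.29% were. Neither stood for its gene as a whole. Without a test, the 3 endosteal arrays lay wholly above the 3 central arrays for 3 members and wholly below them for 24. Over all probe sets those shares were 17.8% and 13.6%. Of the members, 55 had a mean level above the median of all probe sets, and 22 of these had endosteal arrays wholly below and 1 wholly above the central ones. Among all probe sets above the median level the shares were 23.2% and 22.2%. Members lying apart were thus mostly lower in endosteal RNA, while the background was even. The 22 are not independent, since several share a gene and all were read from the same 6 arrays. Among them, 4 name H2-D1 alone and 2 name H2-K1 alone.

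**Figure D1:**
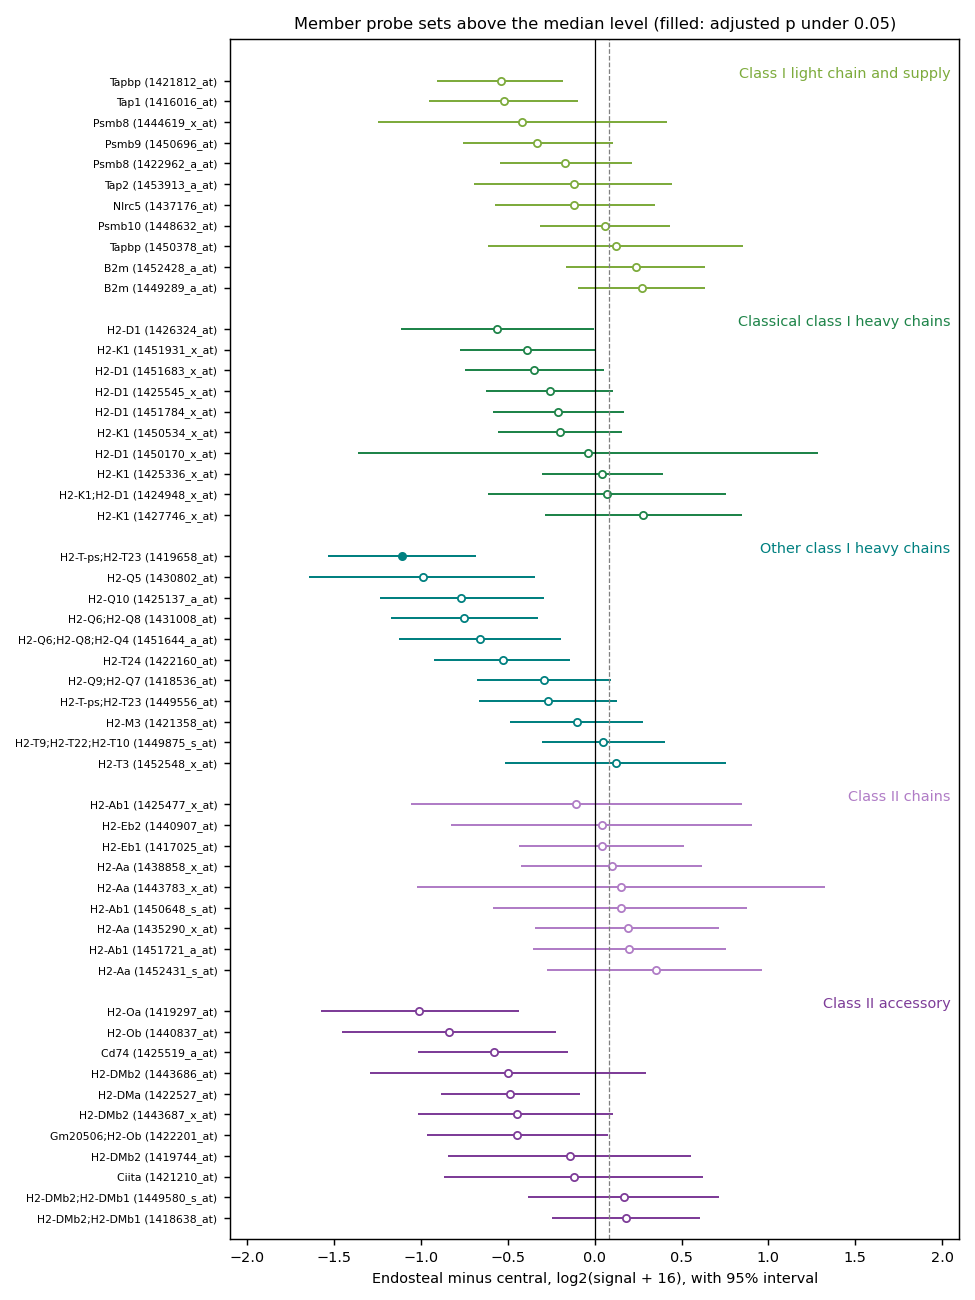
Change of each class I and class II member probe set above the median level, endosteal minus central on the log2(signal + 16) scale. Each has its 95% interval from limma, and probe sets are grouped by role. Members of neither class are not drawn. The dashed line is the median of all probe sets at 0.08, and the 1 filled point, naming H2-T-ps and H2-T23, passed the adjusted p of 0.05. Class II chain intervals all cross 0, and the next lowest values are those of H2-Oa, H2-Q5 and H2-Ob.

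The classical class I heavy chains present peptides to CD8 T cells, and none of their probe sets was called. H2-D1 had signals of 18810, 21025 and 20485 on the endosteal arrays (in the order A, B, C, as throughout), against 26057, 23334 and 22924 on the central ones. All 3 endosteal values lay below the central ones. The change was -0.26 ± 0.15 (SE) with an adjusted p of 0.363 by limma, and its 95% interval ran from -0.62 to 0.10. H2-K1 had 17131, 16677 and 17560 on endosteal arrays, against 17136, 15648 and 17072 on central arrays. These overlapped, with a change of 0.04 and an interval from -0.30 to 0.39. A second bright H2-K1 probe set gave a different picture. It read 13231, 14454 and 15513 in endosteal RNA and 20657, 18606 and 17242 in central RNA (-0.39, adjusted p = 0.222 by limma). Of the 9 probe sets that name H2-D1 alone, 4 had endosteal arrays wholly below and 0 wholly above the central ones. Of the 4 for H2-K1 it was 2 and 0. Shares over all probe sets were 13.6% below and 17.8% above. Changes ran from -0.56 to 0.75 for H2-D1 and from -0.39 to 0.28 for H2-K1, and 0 of the 13 were called. Most of these probe sets carry the suffix x_at, by which the maker marks probes that may bind related sequences. Their signal therefore cannot be assigned firmly to H2-K1 or H2-D1. An H2-D1 probe set without that suffix read 1230, 1844 and 1934 on endosteal arrays, wholly below the 2234, 2391 and 2664 of central arrays. Its change was -0.56 (interval -1.11 to -0.01, adjusted p = 0.213 by limma). A dim H2-D1 probe set without the suffix overlapped, at -0.33.

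The class I genes outside the classical pair lie in the Q, T and M regions of the MHC. Of 21 such probe sets, 11 were above the median level, with a median change of -0.53. Against shares of 23.2% and 22.2% among all probe sets above that level, 8 of the 11 lay wholly below and 0 wholly above. The call in this group was the probe set shared by H2-T-ps and H2-T23, the gene of Qa-1, which shows leader peptides of other class I chains to receptors of natural killer cells. It read 81.1, 91.3 and 104 on endosteal arrays, against 247, 199 and 207 on central arrays. The change was -1.11 ± 0.17 (SE, adjusted p = 0.0285 by limma, 0.133 with the letter block, and 0.0556 to 0.0956 on leaving out any 1 of the 6 arrays). The other probe set for the same pair, much brighter, read 6812, 7352 and 7734 on endosteal arrays and 9704, 8813 and 7891 on central arrays. It also lay wholly below, but at -0.27 with an adjusted p of 0.384. The call therefore rests on the dimmer probe set.

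The 5 Q region probe sets above the median level had endosteal arrays wholly below central ones, against 23.2% of all probe sets there. However, 4 of the 5 changes were positive when arrays were scaled to their poly-A controls. The median of the 5 was -0.75 and their smallest adjusted p was 0.0704 by limma, so 0 were called. The probe set for H2-Q6 or H2-Q8 read 2360, 2812 and 2167 on endosteal arrays, against 4317, 3738 and 4264 on central arrays (-0.75). H2-Q10, known as a secreted class I molecule of liver, read 571, 703 and 763 on endosteal arrays and 1291, 1002 and 1196 on central arrays (-0.77, adjusted p = 0.0836). H2-Q5 read 219, 115 and 196 in endosteal RNA, against 380, 373 and 317 in central RNA (-0.99, adjusted p = 0.0963). A dimmer H2-Q5 probe set overlapped, at 0.17, and so did the dim probe set shared by H2-Q5 and H2-K1, at 0.54. The probe set for H2-Q7 or H2-Q9 differed less, with 2268, 2336 and 1940 against 2801, 2612 and 2570 (-0.29). In contrast, the bright probe set for H2-T9, H2-T22 or H2-T10 overlapped, with 2388, 2240 and 2314 on endosteal arrays and 2331, 2110 and 2267 on central arrays (0.05, interval -0.30 to 0.40). H2-M3, which presents formylated peptides of bacteria and mitochondria, overlapped as well, with 967, 970 and 824 on endosteal arrays against 963, 1046 and 952 on central ones (-0.10, interval -0.48 to 0.27). H2-T24 read 477, 428 and 488 in endosteal RNA and 759, 649 and 633 in central RNA (-0.53, adjusted p = 0.119).

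The light chain had positive changes, where most heavy chain probe sets above the median level had negative ones. B2m read 36886, 36330 and 37724 on endosteal arrays, against 33826, 28870 and 29651 on central arrays, so that all endosteal values were higher. The change was 0.27 ± 0.15 (SE, interval -0.09 to 0.63, adjusted p = 0.348 by limma). After centring each array on its median this change was 0.01, and after quantile normalisation -0.08, so its direction depended on the scaling. A second B2m probe set overlapped, at 0.24.

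Among the peptide supply genes, tapasin and TAP1 had lower values in endosteal RNA. Tapbp read 5204, 4638 and 4667 on endosteal arrays, against 7325, 6799 and 7035 on central arrays (-0.54, interval -0.90 to -0.19, adjusted p = 0.0963 by limma). A dimmer Tapbp probe set overlapped, at 0.12. Tap1, a chain of the transporter, read 1115, 1056 and 986 in endosteal RNA and 1806, 1409 and 1377 in central RNA (-0.52, adjusted p = 0.151). Dim Tap1 probe sets below the median level had -0.86, wholly below, and -0.58 and -0.18 with overlap. Tap2, the partner of TAP1, overlapped, with 759, 466 and 516 on endosteal arrays and 566, 691 and 608 on central arrays (-0.12, interval -0.69 to 0.44). Thus the chains of 1 transporter were not shown to move together, and the difference between them was not tested.

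The 3 immunoproteasome subunits showed no shared difference. Psmb9 read 2052, 1918 and 2110 on endosteal arrays, all below the 2998, 2485 and 2222 of central arrays (-0.33, adjusted p = 0.326 by limma). Psmb8 read 3446, 3004 and 3406 in endosteal RNA and 3971, 3454 and 3644 in central RNA (-0.17), also without overlap. Psmb10 read 2173, 1892 and 2283 in endosteal RNA and 2039, 1979 and 2033 in central RNA (0.06, interval -0.31 to 0.43). Nlrc5, the class I coactivator, overlapped between regions, with 697, 745 and 561 on endosteal arrays against 784, 752 and 631 on central ones (-0.12, interval -0.57 to 0.34). Of the 14 probe sets of light chain, supply and regulator, 0 were called.

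**Figure D2:**
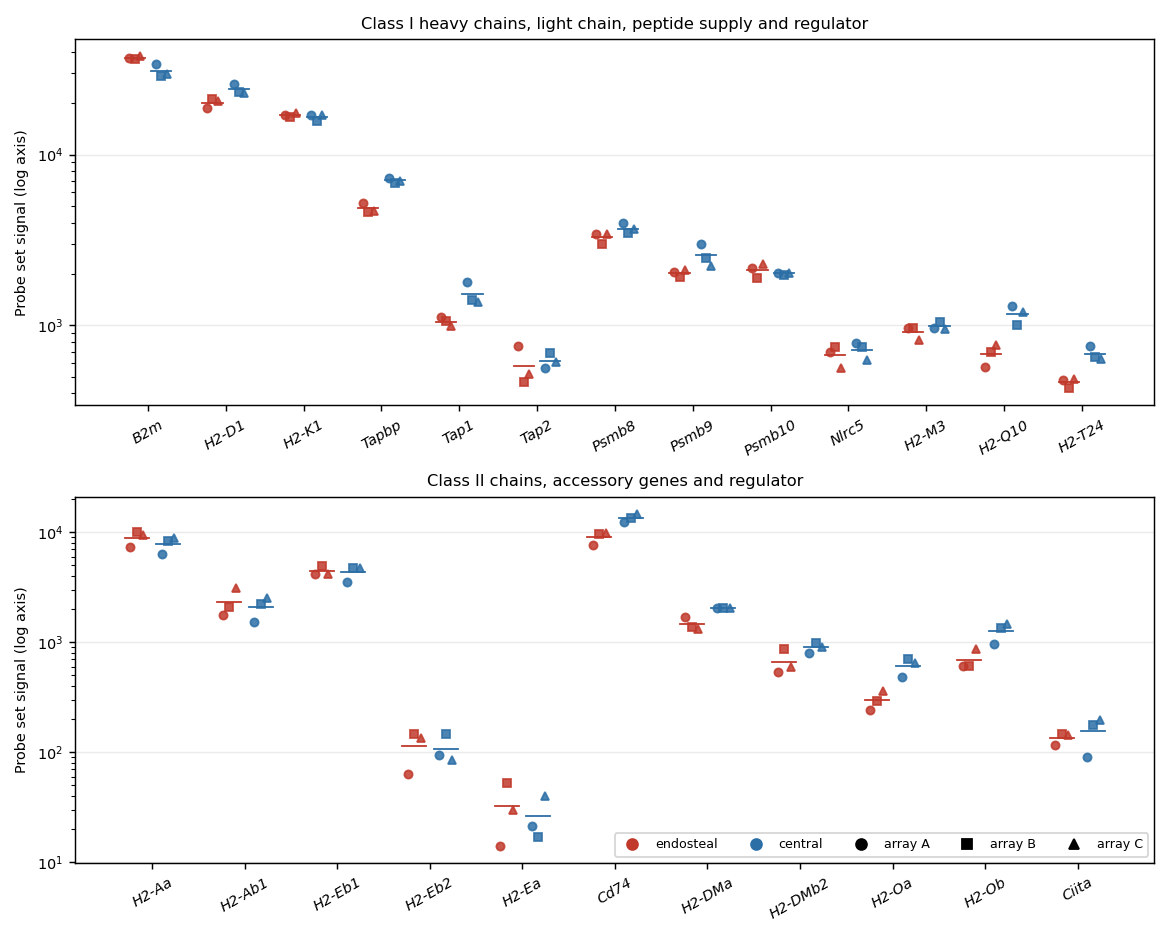
Signal on each array (log axis) for the brightest probe set of each gene that names it alone, endosteal to the left of central, with symbols for arrays A, B and C and a bar at the mean of 3 arrays. B2m lies wholly higher in endosteal RNA. H2-D1, Tapbp, Tap1, Psmb8, Psmb9, H2-Q10, H2-T24, Cd74, H2-DMa, H2-Oa and H2-Ob lie wholly lower. The other genes drawn, among them H2-K1, H2-Aa, H2-Ab1 and H2-Eb1, overlap.

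The class II chains overlapped between endosteal and central RNA. Expressed class II on C57BL/6 mice is the pair of H2-Aa and H2-Ab1, whose alpha and beta chains form the I-A molecule. H2-Aa read 7317, 9939 and 9340 on endosteal arrays, against 6271, 8338 and 8817 on central arrays (0.19, interval -0.34 to 0.71, adjusted p = 0.659 by limma). H2-Ab1 read 1765, 2104 and 3116 on endosteal arrays and 1539, 2200 and 2522 on central arrays (0.15, interval -0.58 to 0.87). H2-Eb1, the beta chain of I-E, read 4164, 4912 and 4140 in endosteal RNA and 3496, 4708 and 4721 in central RNA (0.04, interval -0.43 to 0.51). Together these 3 genes had 8 probe sets. All 8 overlapped, their changes ran from -0.11 to 0.35, and their smallest adjusted p was 0.469. H2-Eb2, a second E beta chain gene, read 63.3, 147 and 135 in endosteal RNA and 94.2, 146 and 85.1 in central RNA (0.04).

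The member called higher was 1 probe set for H2-Ea, the alpha chain of I-E. It read 42.2, 35.7 and 64.1 on endosteal arrays and 9.90, 10.1 and 8.66 on central arrays, all under the median signal of every array. The change was 1.28 ± 0.21 (SE, adjusted p = 0.0324 by limma, 0.13 with the letter block, and 0.0528 to 0.112 on leaving out any 1 array). C57BL/6 mice carry the b haplotype, known for lacking the E alpha chain. The brightest H2-Ea probe set, at 14.0, 53.0 and 29.9 in endosteal RNA against 21.5, 16.9 and 39.9 in central RNA, overlapped (0.15), and so did the remaining one (0.59). Of 12 class II chain probe sets, this was the 1 called.

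The accessory genes of class II loading mostly had lower values in endosteal than in central RNA, although none was called. Cd74, the invariant chain, read 7659, 9569 and 9842 on endosteal arrays, all below the 12381, 13441 and 14629 of central arrays. The change was -0.58 ± 0.17 (SE, interval -1.01 to -0.16, adjusted p = 0.122 by limma). H2-Oa read 240, 291 and 357 on endosteal arrays, against 479, 703 and 650 on central arrays (-1.01, interval -1.57 to -0.44, adjusted p = 0.0707). Its partner H2-Ob read 604, 602 and 870 in endosteal RNA and 953, 1358 and 1451 in central RNA (-0.84, interval -1.45 to -0.23, adjusted p = 0.12). H2-O is known chiefly from B lymphocytes, and these probe sets for its chains lay wholly below central values. A further probe set naming H2-Ob with Gm20506 overlapped, with 189, 199 and 222 on endosteal arrays against 216, 306 and 339 on central arrays (-0.45, adjusted p = 0.28).

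H2-DM, which H2-O restrains, had differing values among the probe sets of its beta chains. The alpha chain gene H2-DMa read 1678, 1382 and 1327 on endosteal arrays and 2025, 2041 and 2061 on central arrays (-0.49, adjusted p = 0.148 by limma), without overlap. A dimmer H2-DMa probe set overlapped, at -0.76. For the beta chains, H2-DMb2 read 538, 861 and 592 in endosteal RNA and 801, 992 and 906 in central RNA (-0.45, adjusted p = 0.304), with overlap. A probe set shared by H2-DMb2 and H2-DMb1 read 795, 770 and 957 in endosteal RNA against 580, 924 and 765 in central RNA (0.17). No difference between the chains was tested. Ciita read 117, 148 and 143 on endosteal arrays, against 91.4, 178 and 198 on central arrays (-0.12, interval -0.86 to 0.62). Its other probe sets, both below the median level, had -1.16, with endosteal arrays wholly below (32.6, 4.64 and 68.0 against 92.8, 83.9 and 69.5 on central arrays, adjusted p = 0.253), and -0.65 with overlap. Of the 14 accessory probe sets, 12 had a negative change and 0 were called.

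Several of these lower values passed under other settings of the same test. When the 22518 probe sets above the median level were tested alone, 12 of 55 members were called lower and 0 higher, where 12.1% and 12.3% of those probe sets were. The 12 were H2-Oa, H2-Ob, Cd74, H2-DMa, Tapbp, Tap1, H2-Q5, H2-Q10, H2-T24, both probe sets that name H2-Q6 with H2-Q8, and the dimmer H2-T-ps and H2-T23 probe set. When the prior spread followed the mean level (limma's trend), 15 members were called lower and 0 higher, against 6.47% and 7.59% of all probe sets. H2-Aa, H2-Ab1 and H2-Eb1 had 0 calls in either. With each array centred on its median, 7 were called lower and 0 higher (4.28% and 2.62% of all probe sets), with a pseudocount of 64 it was 6 and 0 (3.26% and 5.29%), and after quantile normalisation 2 and 0 (1.31% and 2.46%). With the brightest probe set per gene, 3 of 34 genes (H2-Oa, H2-Q10 and Tapbp) were called lower and 0 higher (4.02% and 7.92% of genes), and with the mean per gene 1, H2-Oa, and 0 (2.73% and 6.11%). With the letter as a random block it was 2 and 1 (1.69% and 3.75%), and with a pseudocount of 1 it was 1 and 1 (0.515% and 1.9%). When arrays were scaled to their poly-A controls, 34 members were called higher and 0 lower, where 48.2% and 0.129% of all probe sets were, since the median of all probe sets shifted by 0.86. On that scale 9 of the 12 lower members named above turned positive, from 0.02 for H2-Ob to 0.38 for H2-DMa, with Cd74 at 0.28 and Tapbp at 0.32. Of the 5 brighter Q region probe sets, H2-Q5 alone stayed negative, at -0.13. H2-Oa stood at -0.14 and the dimmer H2-T-ps and H2-T23 probe set at -0.25.

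Class I and class II were set side by side by their medians. Over all probe sets of the group the median change was -0.18 for class I (32 of 51 negative) and -0.04 for class II (13 of 26 negative), beside 0.08 for all probe sets. Among those above the median level it was -0.24 for 32 class I and -0.04 for 20 class II probe sets, beside -0.02 for all. The class II figure joins 2 unlike parts, with the 9 chain probe sets above the median level at 0.15 and the 11 accessory ones at -0.45. Within class I, medians were -0.12 for the 11 of light chain and supply, -0.21 for the 10 classical heavy chains and -0.53 for the 11 others. Centring the arrays gave -0.45 for class I and -0.30 for class II over all probe sets of each, and poly-A scaling 0.68 and 0.83. Relative to the median of all probe sets, class I stood at -0.26 and class II at -0.11 as reported, and at -0.22 and -0.10 after quantile normalisation. This order did not hold under some other settings. Both stood at -0.22 for the brightest probe set per gene, at -0.22 and -0.47 for gene means, and at -0.23 and -0.30 without central array A. No test of these differences between groups was run.

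Class II signals also varied between arrays of 1 region. Array A was the lowest of its region in both regions for 15 of 20 class II probe sets above the median level, against 17.3% of all probe sets there. For H2-Aa, H2-Ab1 and H2-Eb1 it was so in 7 of 8, and for class I in 3 of 32. Relative to the central mean of each probe set, the class II median was -0.32, 0.05 and -0.04 on the endosteal arrays (A, B, C) and -0.36, 0.14 and 0.18 on the central ones. Array A was likewise the lowest in both regions for 10 of 14 B lymphocyte markers. Within a letter, the chains had median differences between regions of 0.20, 0.07 and 0.08 for A, B and C, and the accessory genes -0.18, -0.49 and -0.58. Without both A arrays, a choice made after these values were seen, the class I median was -0.09 and 0 of all probe sets were called in either direction.

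**Figure D3:**
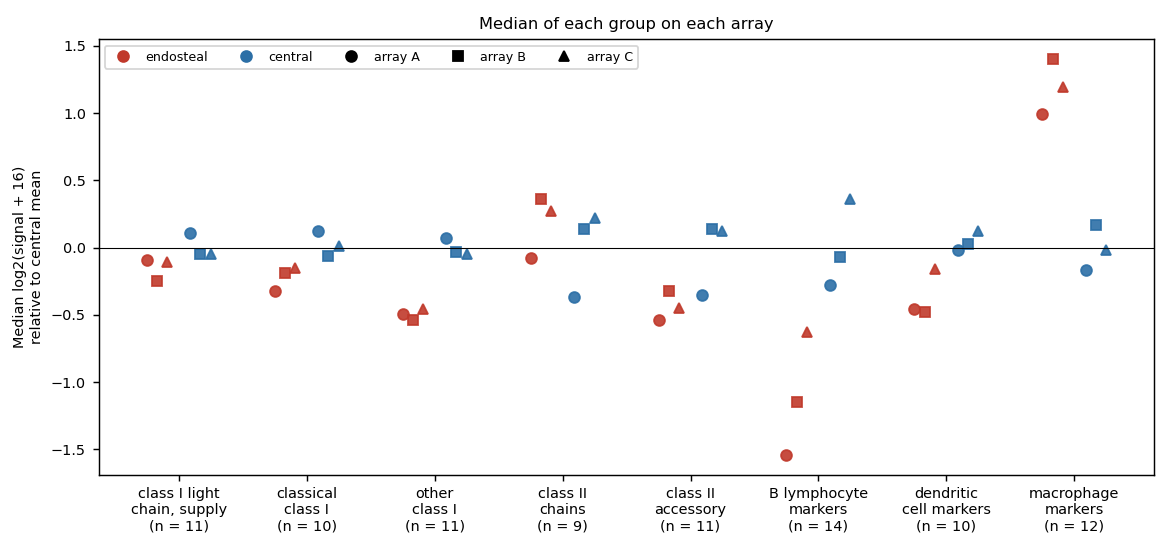
Median over the probe sets or genes of each group on each array, as log2(signal + 16) relative to the central mean of each, endosteal to the left of central, with symbols for arrays A, B and C. Class II chains sit at -0.08, 0.36 and 0.27 on endosteal arrays against -0.37, 0.14 and 0.22 on central arrays, overlapping. The B lymphocyte markers lie below and the macrophage markers above their central values.

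Markers of the cells that carry class II differed in direction. The 14 measured B lymphocyte markers had a median change of -1.06, and 1, Cd79a, was called lower. Wholly below lay 9 of them, where 23.2% of all probe sets above the median level did. The summed signal of these markers was 10322, 13847 and 20187 on the endosteal arrays, against 26218, 31543 and 41268 on central arrays. The 12 macrophage markers had a median of 1.19 and 5 were called higher, with sums of 30821 to 37180 on endosteal arrays against 18928 to 19470 on central arrays. The 10 dendritic cell markers had a median of -0.32 with 1, Ccr7, called lower, and sums of 2882 to 3449 against 3800 to 4252. The 4 monocyte markers had a median of -0.70 and 0 calls, and the 8 neutrophil markers a median of 0.56 with 2 called higher. The lowest mean signal of any B lymphocyte marker was 159, so all were measured well above the low end of the arrays. The part of these cells in the values of the class II genes was not tested.

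Neighbouring genes of both pathways were mostly not called. Of 12 measured further class I pathway genes, 0 were called, with a median change of 0.12. On that list 4 lay wholly above and 4 wholly below, where 22.2% and 23.2% of all probe sets above the median level did. That list holds Sppl2a, a protease known for cutting the CD74 fragment of the class II pathway (0.10), and without it, an alternative chosen after seeing the data, the other 11 had 0 calls and a median of 0.15. Canx and Pdia3, chaperones of heavy chain folding, had the values 0.64 and 0.74 (adjusted p = 0.0656 and 0.0619 by limma), and Irf1, an interferon response factor, had -0.56 (adjusted p = 0.111). Of 19 further class II pathway genes, 2 were called higher and 0 lower, where 3.21% and 1.29% of all probe sets were. Their median was -0.11. Both called genes encode lysosomal proteases. Lgmn, asparaginyl endopeptidase, rose to 1656, 1677 and 1764 on endosteal arrays, against 507, 673 and 587 on central arrays (1.51 ± 0.17 SE, adjusted p = 0.0142). Ctsl, cathepsin L, rose to 4097, 4589 and 5132, against 1366, 1799 and 1908 (1.45 ± 0.20 SE, adjusted p = 0.0225). Ctss, the cathepsin known for cutting the invariant chain in B lymphocytes and dendritic cells, overlapped, with 9662, 10824 and 10871 on endosteal arrays and 11698, 10478 and 11568 on central arrays (-0.11). With the letter block, Lgmn and Ctsl had adjusted p-values of 0.104 and 0.103.

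The 4 remaining members overlapped between regions. Cd1d1, which presents lipids to natural killer T cells, read 1423, 1255 and 1347 on endosteal arrays and 1033, 877 and 1413 on central arrays by its brighter probe set (0.30, interval -0.23 to 0.83). H2-Ke6, an enzyme gene inside the MHC that presents nothing, had a change of -0.18 (adjusted p = 0.717 by limma). The dim probe set for H2-D4, a name the groups above do not place, had 0.59 (adjusted p = 0.646).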

How the data were processed

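Biotin-labelled cRNA from 2 micrograms of total RNA per sample was hybridised to 6 Affymetrix mouse arrays, per the labels' protocols. The deposited values are linear intensity signals per probe set. Which software summarised them is not given in the sources used here. Scanner files were not used here. Each array had the same trimmed mean, 500.0 after dropping 2% of probe sets at each end, so the authors' values appear scaled by 1 factor per array. Between 15.9% and 20.1% of probe sets per array were below 16, and precision is limited by having 3 arrays per region. The platform annotation gave the names: 34945 named 1 gene, 932 several, 9160 none, besides 64 array controls. Of the 34945, 34741 identifiers were found in the RefSeq table of GRCm38.p6, and 0 symbols changed.

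Signals were transformed as log2(signal + 16), which understates changes of dim probe sets, and endosteal was set against central RNA in limma 3.58.1 under R 4.3.3 (lmFit, eBayes), two-sided, with Benjamini-Hochberg adjustment over 45037 probe sets at 0.05. Region was the only term, since the study compared averages of the regions. Nothing says that arrays of 1 region came from separate extractions beyond the 3 mice. The design gives 3 mice and both regions carry letters A, B and C, but no label says that a letter stands for 1 mouse. After subtracting the region means, arrays sharing a letter had correlations of 0.04, 0.03 and 0.01 over all probe sets for A, B and C, and of 0.18, 0.08 and 0.05 above the median level. The letter block is printed where it ends a call.

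Simulated arrays had 45037 probe sets with 200 changed. There the test recovered 1% of changes of 1 and 29% of changes of 2 on the log2 scale. In the data 1444 probe sets were called higher and 582 lower. With fewer changes the adjusted threshold was stricter in the simulation, so these shares may understate recovery in the data. A missed call at the sizes seen here still does not show equal levels.

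The members, groups and lists were chosen with earlier results of these data known. Values on every array are given for the brightest probe set of each classical class I, light chain, supply, class II chain and class II accessory gene, and for called members. Others named with values were chosen after their values were seen. Lists are described by counts and medians, taking 1 probe set per gene, the brightest. Alternatives were the low-level filter, gene summaries, pseudocounts of 1 and 64, scaling, the trend, the blocks and leaving out arrays. Of the listed names, 14 of 15 B lymphocyte, 12 of 13 macrophage, 10 of 11 dendritic cell, 12 of 14 class I and 19 of 21 class II pathway names were measured, and the last list spells 2 genes both ways.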

Additional observations from a re-analysis of the deposited data

How the results depend on the processing

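Both counts and directions depended on the settings. Of 45037 probe sets, 1444 were higher and 582 lower as reported. The counts were 2778 and 2715 above the median level, 3420 and 2913 with limma's trend, 857 and 232 with a pseudocount of 1, 2382 and 1466 with 64, and 21722 and 58 with arrays scaled to 27 poly-A control probe sets. Centring arrays on their medians gave 1179 and 1927, so that 38.0% of calls were higher, against 71.3% as reported, 50.6% above the median level, 54.0% with the trend and 99.7% with poly-A scaling. The median of all probe sets shifted by -0.26 with centring, -0.11 with quantile normalisation and 0.86 with poly-A scaling. Leaving out 1 array gave 210 to 868 higher and 5 to 181 lower, fewest without central B. With the letter as a replicate block, and without both A arrays, 0 were called in either direction, while 9225 and 7995 had an unadjusted p under 0.05 by limma.

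Member probe sets called higher and lower were 1 and 1 as reported, 0 and 12 above the median level, 0 and 7 with centring, 0 and 3 for the brightest probe set per gene, 0 and 15 with the trend, 0 and 1 for the mean per gene, 0 and 6 with a pseudocount of 64, 0 and 2 after quantile normalisation, 1 and 2 with the letter as a random block (consensus correlation 0.07), and 34 and 0 with poly-A scaling. They were 0 and 0 with the replicate block, in every leave-out of 1 array and without both A arrays. Class I calls, 1 as reported, were all lower except with poly-A scaling. They were 8 above the median level, 5 with centring, 2 per brightest probe set, 11 with the trend and 0 per gene mean. They were 5 with a pseudocount of 64, 2 after quantile normalisation and 2 with the random block. The 1 class II call as reported, H2-Ea, was higher. Above the median level, with centring and with the trend, class II calls were 4, 2 and 4, all lower. After quantile normalisation there were 0. Poly-A scaling gave 22 class I and 10 class II calls, all higher, where 48.2% of all probe sets were called higher. Shares over all probe sets for the other settings stand with the member counts in the Results. Both classes had 0 calls with the replicate block and in the leave-outs, 0 to 0.

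The class I median of -0.18 was -0.45 with centring, 0.68 with poly-A scaling and -0.09 without both A arrays. The class II median of -0.04 was -0.30 with centring, -0.37 for gene means and 0.83 with poly-A scaling, and -0.24 to 0.13 on leaving out 1 array, lowest without central A and highest without endosteal A. With poly-A scaling, 8 members with a negative change were called higher: H2-M3 at 0.76, Psmb8 at 0.70, H2-D1 at 0.60 and 0.65, Nlrc5 at 0.75, Cd1d1 at 0.86, H2-T-ps and H2-T23 at 0.60 and H2-K1 at 0.66. The poly-A spikes averaged 8.96 to 9.07 (log2) on endosteal and 9.71 to 10.06 on central arrays, and the cause was not tested. The H2-Ea call also ended with centring, the trend, gene means, a pseudocount of 64 and quantile normalisation. Signals near the low end of the arrays limit what dim members such as H2-Ea can show.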
